A study of Mus musculus with 6 samples.

Results

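Genes of the ciliary axoneme and of intraflagellar transport were read out in RNA sequencing of sorted hippocampal microglia. The members were every row whose symbol has the stem Cfap, Dnah, Dnaic, Dnaaf, Rsph, Tekt, Tctn, Ift or Bbs followed by a number and at most 1 letter, plus Foxj1. This gave 68 of the 16179 genes in the table. They form a motile axoneme class of 43 genes (Cfap, Dnah, Dnaic, Dnaaf, Rsph, Tekt and Foxj1), a transport class of 22 (Ift and Bbs) and 3 tectonics (Tctn), which are kept apart because they sit at the transition zone. All 6 libraries came from progranulin knockout males of strain B6.129S4(FVB)-Grntm1.1Far/Mmja aged 10 months, and each library pooled the hippocampi of 2 animals. Live cells with CD11b on the surface and little CD45 were sorted by BODIPY, a dye for neutral lipid, into 3 BODIPY-low libraries (few lipid droplets) and 3 BODIPY-high libraries (many lipid droplets). The comparison asks how droplet-rich cells differ from droplet-poor cells of these mice, and it holds no wild-type arm here. It is not stated whether the same animals gave both sorts, and p-values therefore speak only of the scatter among these 6 libraries.

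A motile cilium is built around an axoneme of microtubule doublets, which outer and inner dynein arms slide against each other, while radial spokes regulate the arms and tektins stiffen the doublet wall. Foxj1 is the forkhead factor that switches on this programme in multiciliated cells such as ependyma and choroid plexus epithelium. Intraflagellar transport trains carry cargo along the axoneme of both motile and primary cilia: IFT-B trains move outward with kinesin, IFT-A supports the return with dynein-2, and the BBSome links membrane proteins to the trains. Many transport genes are also active in cells without motile cilia, and several have known roles in vesicle traffic.

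Recovered reads per library ranged from 24982215 to 34899425. Values below are the deposited normalised read counts (reads divided by a factor for the depth of the library), always listed for replicates 1, 2 and 3 in that order. A value of 0.928 is 1 read in BODIPY-low replicate 3. Grn itself, the targeted gene, had 416, 625 and 990.1 in BODIPY-low and 468, 657 and 1614 in BODIPY-high, so the groups overlapped. Where in the gene those reads lie is not known, so they cannot check the deletion. RPM below is the recovered read count scaled to the library total. The 10 microglia markers summed to 60050.2 to 67046 RPM in BODIPY-low and 53987 to 57212 in BODIPY-high libraries. By limma at an adjusted p below 0.05, 2 of them fell, and 5 lay wholly lower in BODIPY-high libraries. Of all 12821 tested genes 3.52% fell, 9.79% rose and 13.4% lay wholly lower. The 18 choroid plexus markers were all higher in BODIPY-high libraries (5622 to 10031 RPM, against 169 to 699 in BODIPY-low), and 9 of 10 neutrophil markers fell (summed 7.36 to 81.5 RPM, against 1077 to 2792).

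Motile axoneme genes held the largest fold changes of the members. Of the 28 whose average across all 6 libraries reached 10 normalised reads, 13 rose in BODIPY-high libraries and 0 fell at a limma adjusted p below 0.05, where 9.79% of all 12821 tested genes rose and 3.52% fell. At an unadjusted p under 0.05, Cfap74 alone was lower, and edgeR and DESeq2 called 0 members of the class lower. Of the 18 members of any class that rose, edgeR called 15 and DESeq2 17 (9.48% and 11.4% of all tested genes rose by these tools). The median log2 fold change of the 28 was 2.09, against -0.01 over all tested genes. A gene silent in BODIPY-low libraries passes this filter only through BODIPY-high reads, so these counts are a description. With no filter, which tests all 43, the rises numbered 14 (8.24% of 16179 genes rose), Cfap61 being the addition. With the filter set on the BODIPY-low mean alone, 8 of 20 rose and 0 fell (6.21% of 12263 genes rose and 3.07% fell). Beside this stand the choroid plexus markers, whose rise in BODIPY-high libraries is given above and whose part in the counts here was not tested. In bulk RNA, more cells of a type and more RNA per cell cannot be told apart.

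All called members of the class had few reads in BODIPY-low libraries, as did 6 tested members that were not called. The 13 genes that rose had BODIPY-low means of at most 43.9 normalised reads, while 0 of the 9 members with a BODIPY-low mean of at least 100 were called by limma, edgeR or DESeq2. Of all tested genes with such a BODIPY-low mean, 5.12% rose by limma, and 0 of 9 is near that share. Fold changes were positive in 7 of the 9. The BODIPY-low mean used for this split is itself part of the fold change. At an unadjusted p under 0.05, Cfap36, Dnaaf5 and Rsph3a were higher and Cfap74 was lower by limma. Cfap36 was called higher once BODIPY-low replicate 1 or BODIPY-high replicate 2 was left out. Those 9 were Cfap97, Cfap74, Cfap20, Cfap36, Rsph3a, Rsph3b, Dnaaf2, Dnaaf3 and Dnaaf5. Per kilobase of exon, Dnaaf5, Cfap97 and Cfap20 had the highest levels of the class (213, 212 and 115 normalised reads per kilobase over the 6 libraries).

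**Figure D1:**
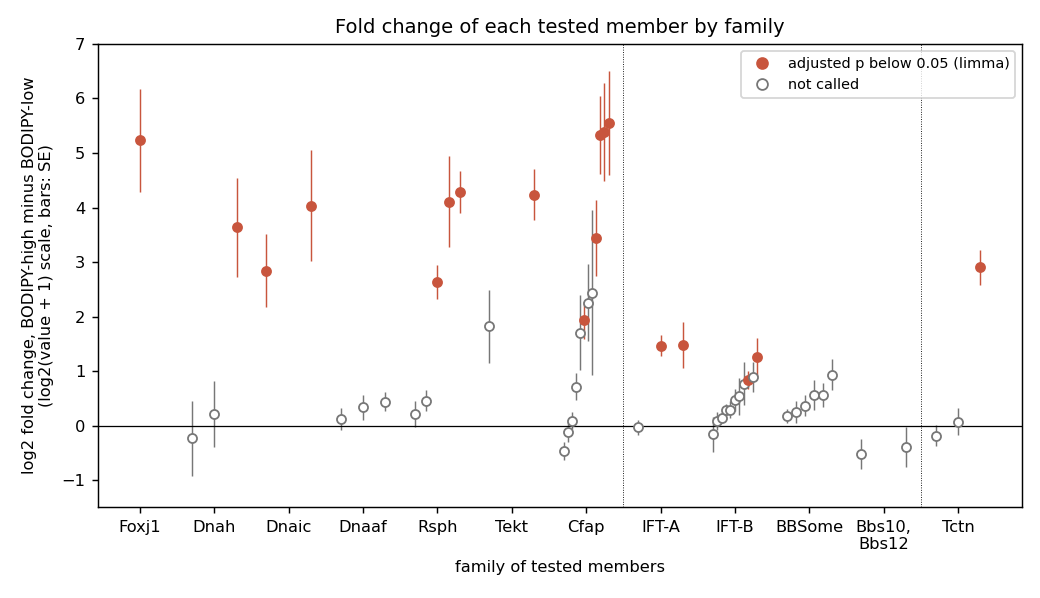
Log2 fold change (BODIPY-high minus BODIPY-low, log2(value + 1) scale, vertical axis) of each tested member by family, with its standard error; filled points have a limma adjusted p below 0.05. Dotted lines part the motile axoneme class (left), the transport class and the tectonics (right), and the filled points of the left part lie between 1.93 and 5.55, above those of the transport class (0.84 to 1.48).

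Foxj1 (GRCm38 chromosome 11, 116330704 to 116335399) stood at 11.4, 0 and 0 in the BODIPY-low libraries and at 84.8, 79.3 and 94.5 in the BODIPY-high libraries. The 3 BODIPY-high values lay close together and far above the single BODIPY-low library with reads. A count of 0 allows up to 3.20 and 2.78 normalised reads in BODIPY-low replicates 2 and 3. Pooled over libraries, 10 reads stood against 279, a ratio of 25.2 (exact 95% interval 13.5 to 53.1). Here and below such intervals cover counting error only. Its log2 fold change was 5.23 (SE 0.94, limma adjusted p = 0.00422), and DESeq2 did not call the gene (adjusted p = 0.0616).

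Of the dynein arm genes, both intermediate chains and 1 of 3 tested heavy chains rose. Dnaic1 and Dnaic2 encode the intermediate chains that anchor outer arm dynein. Dnaic1 (chromosome 4, 41569775 to 41638158) had 9.15, 4.26 and 1.86 in BODIPY-low and 34.9, 32.8 and 45.3 in BODIPY-high (log2 fold change 2.84, SE 0.67, limma adjusted p = 0.0172). Dnaic2 (chromosome 11, 114727408 to 114757889) had 32.0, 3.20 and 0 in BODIPY-low and 90.4, 65.7 and 98.5 in BODIPY-high (4.03, SE 1.02, adjusted p = 0.0241). For both genes the groups did not overlap, and BODIPY-low replicate 1 was the highest of its group. Dnah9 (chromosome 11, 65831282 to 66168551), an outer arm heavy chain, had 0, 1.07 and 6.496 in BODIPY-low and 22.6, 24.9 and 47.7 in BODIPY-high (3.64, SE 0.91, adjusted p = 0.0224). These were the 3 calls of the class that leaving out 1 library could end. The Dnah9 call ended without replicate 2 of either sort or without BODIPY-high replicate 3, where adjusted p reached 0.105, and that of Dnaic1 without replicate 3 of either sort (up to 0.0761). For Dnaic2 this held for replicate 3 of either sort, for BODIPY-low replicate 2 and for BODIPY-high replicate 1 (up to 0.0898), and edgeR did not call it (0.0828).

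The other tested heavy chains, Dnah2 and Dnah17, were not called by limma, edgeR or DESeq2. Dnah2, an inner arm chain, had 28.6, 22.4 and 36.2 in BODIPY-low and 69.7, 12.5 and 40.5 in BODIPY-high, so its groups overlapped on both sides (limma adjusted p = 0.871). Dnah17 also overlapped, at 8.004 to 31.5 against 9.42 to 21.5 (adjusted p = 0.867). The remaining 7 (Dnah1, Dnah6, Dnah7a, Dnah7b, Dnah8, Dnah10 and Dnah11) missed the filter. Dnah11, an outer arm chain, had reads in BODIPY-high replicate 2 alone (24.9), and Dnah7b in BODIPY-high replicates 1 and 3 (13.2 and 31.0) beside 1 read in the BODIPY-low group. Dnah7a and Dnah7b are close copies, and how reads were shared between them is not known.

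Dnaaf genes act in the cytosol, where they help to assemble dynein arms before import into the cilium. None of the 3 tested was called by limma, edgeR or DESeq2. Dnaaf5 had 544, 663 and 686 in BODIPY-low and 726, 783 and 1088 in BODIPY-high (log2 fold change 0.44, SE 0.17, limma adjusted p = 0.127, unadjusted p = 0.0274). Its groups were apart, by a small gap between 686 and 726. Dnaaf2 (340.4 ± 39.8 and 374 ± 79.96, SD, n = 3 each) and Dnaaf3 (210.5 ± 37.3 and 267 ± 58.4) overlapped. Exons of other genes cover 71.4% of the exonic bases of Dnaaf2, 16.5% of those of Dnaaf3 and 10.6% of those of Dnaaf5. For each of the 3, the gene with the largest overlap lies on the opposite strand. Reads in such an overlap cannot be assigned with a kit that does not mark strand.

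Radial spoke genes divided into 3 that rose and a pair of copies that were not called. Rsph1, Rsph4a and Rsph9 encode spoke head proteins of motile cilia. Rsph1 (chromosome 17, 31255019 to 31277383) had 16.01, 7.46 and 10.2 in BODIPY-low and 203, 222 and 262 in BODIPY-high, and it had the smallest adjusted p of all members (log2 fold change 4.29, SE 0.39, limma adjusted p = 7.21e-05). Rsph9 (chromosome 17, 46122035 to 46144216) had 62.9, 37.3 and 31.5 in BODIPY-low and 242, 254 and 305 in BODIPY-high (2.63, SE 0.31, adjusted p = 3.42e-04). Rsph4a (chromosome 10, 33905111 to 33916021) had 25.2, 7.46 and 0.928 in BODIPY-low and 226, 70.2 and 134 in BODIPY-high (4.11, SE 0.83, adjusted p = 0.00828). The BODIPY-high libraries spread more widely for Rsph4a than for Rsph1 and Rsph9, and no groups overlapped. Rsph3a and Rsph3b, close copies that encode a spoke stalk protein, had 214 ± 6.42 and 296 ± 33.9, and 129.8 ± 15.3 and 149.7 ± 14.8 (SD, n = 3 each, limma adjusted p = 0.142 and 0.633). The assignment of reads between these copies is uncertain.

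Tekt1 (chromosome 11, 72344722 to 72362442), a tektin of the doublet wall, had 12.6, 5.33 and 13.9 in BODIPY-low and 252, 129 and 259.8 in BODIPY-high. Every BODIPY-high library exceeded every BODIPY-low one, with replicate 2 the lowest in both groups (log2 fold change 4.24, SE 0.47, limma adjusted p = 2.37e-04). Tekt5, best known from sperm flagella, had 4.57, 8.52 and 6.496 against 19.8, 46.4 and 16.7, and was not called (1.82, SE 0.66, adjusted p = 0.100). Tekt2, Tekt3 and Tekt4 had at most 20 reads in any group.

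Cfap genes, named for their link to cilia and flagella, held the 3 largest fold changes of all members on this scale. With a pseudocount of 5, Cfap44 (3.43) and Cfap70 (3.58) came below Rsph1 (3.88), Tekt1 (3.79) and Foxj1 (3.61). Cfap52 (chromosome 11, 67924806 to 67965651) had 28.6, 4.26 and 0 in BODIPY-low and 343, 202 and 230.4 in BODIPY-high (log2 fold change 5.55, SE 0.95, limma adjusted p = 0.00320). Cfap70 (chromosome 14, 20394193 to 20452226) had 0, 1.07 and 0.928 against 49.9, 69.1 and 70.7. That is 2 reads against 203, a ratio of 91.6 (exact interval 25.03 to 762, limma adjusted p = 7.67e-04). Cfap44 (chromosome 16, 44394796 to 44482428) had 1 read in all BODIPY-low libraries and 143, 23.8 and 38.1 normalised reads in BODIPY-high (ratio 199, interval 35.4 to 7913, adjusted p = 0.00282). BODIPY-high replicate 1 held most of the Cfap44 reads, whereas Cfap70 was lowest there. Cfap69 (chromosome 5, 5579278 to 5664239) had 9.15, 2.13 and 19.5 against 134, 49.8 and 122 (3.44, SE 0.70, adjusted p = 0.00835). Cfap126 rose from 29.7 ± 5.04 to 116 ± 21.8 (SD, n = 3 each, 1.93, adjusted p = 0.00396).

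At the other end of the family, Cfap97, Cfap20 and Cfap74 were well expressed in both sorts. Cfap97 had 1215, 969 and 1216 in BODIPY-low and 1254, 784 and 1138 in BODIPY-high (log2 fold change -0.12, SE 0.18, limma adjusted p = 0.720). Cfap20 had 423, 529 and 547 against 562, 523 and 495 (0.08, SE 0.16, adjusted p = 0.783). Both overlapped. Cfap74 was the 1 tested member whose BODIPY-high libraries all lay below the BODIPY-low ones, at 636, 705 and 715 against 448, 625 and 439 (-0.46, SE 0.17, adjusted p = 0.0976; 13.4% of all tested genes had that order). Among the fits that left out 1 library, it was called lower only without BODIPY-high replicate 2, the library closest to the BODIPY-low values.

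Of the 43 motile members, 15 missed the filter on the mean, and the highest value any of them reached in a library was 31.0 (Dnah7b). Cfap61 was the 1 of these whose groups did not overlap, with 1.14, 0 and 1.86 in BODIPY-low and 27.3, 10.2 and 9.53 in BODIPY-high (3 reads against 50, ratio 15.04, interval 4.86 to 75.4). Cfap46 and Dnah10 had more reads in the BODIPY-low group (7 against 1, and 4 against 0). In 11 of the 15 no library exceeded 16 normalised reads.

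**Figure D2:**
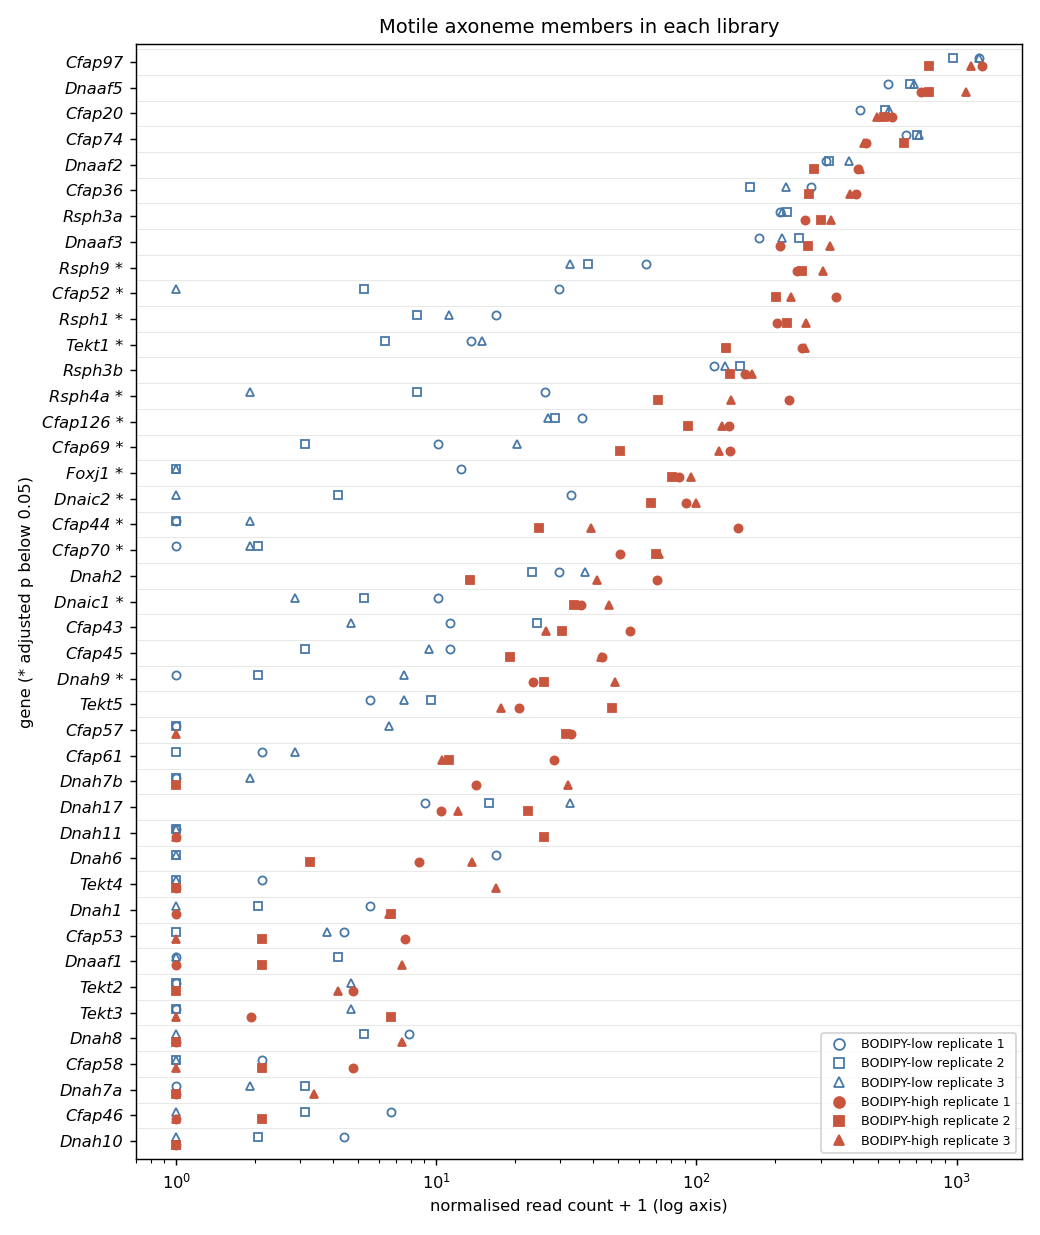
Normalised read count plus 1 (log axis) of all 43 motile axoneme members in the 6 libraries; open blue symbols are BODIPY-low, filled red symbols BODIPY-high, and an asterisk marks a limma adjusted p below 0.05. The marked genes run from Rsph9 to Dnah9, with BODIPY-low values of at most 62.9 and no overlap between the sorts.

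Transport genes had reads in every library, and all 22 passed the filter. Of these 4 rose and 0 fell by limma, beside 9.79% and 3.52% of all tested genes, and edgeR and DESeq2 also called 0 lower. Another 5 were higher at an unadjusted p under 0.05 without being called, as were 6.27% of all tested genes. The median log2 fold change was 0.42, with 18 positive and 4 negative. The BODIPY-high libraries lay wholly above the BODIPY-low ones in 11 of 22, where 18.0% of all tested genes had that order. The difference between the transport and the motile class was not tested. The number of rises fell to 2 without BODIPY-low replicate 2 or without BODIPY-high replicate 3.

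In IFT-A, the return complex, 2 of 3 members rose. Ift122 (chromosome 6, 115853470 to 115926699) had 252, 241 and 174 in BODIPY-low and 614, 523 and 697 in BODIPY-high (log2 fold change 1.46, SE 0.20, limma adjusted p = 7.67e-04). The lowest BODIPY-high library was above the highest BODIPY-low one by more than the range within either group. Ift43 (chromosome 12, 86082541 to 86162459) had 28.6, 25.6 and 16.7 against 49.0, 71.4 and 82.6 (1.48, SE 0.42, adjusted p = 0.0403). Its call was lost without replicate 2 or 3 of either group (adjusted p up to 0.143), with edgeR (0.0614) and with no filter (0.0591). Ift140 overlapped, at 772 ± 94.0 and 751 ± 40.5 (SD, n = 3 each, log2 fold change -0.04, adjusted p = 0.904). Of the IFT-A subunits with other names, Wdr35 had 324, 231 and 217 against 952, 677 and 917 and rose (1.72, SE 0.20, adjusted p = 3.01e-04). Wdr19 (181 ± 25.4 and 256 ± 75.1, adjusted p = 0.293) and Ttc21b (249.7 ± 55.2 and 273 ± 2.65, adjusted p = 0.693) were not called.

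Among the 11 IFT-B members, Ift22 and Ift80 rose. Ift22 (chromosome 5, 136908150 to 136915404), a small GTPase-like subunit, had 234, 218 and 215 in BODIPY-low and 411, 404 and 379 in BODIPY-high, with little spread in either group (log2 fold change 0.84, SE 0.17, limma adjusted p = 0.00803). Ift80 (chromosome 3, 68892499 to 69004570) had 75.5, 113 and 226 against 293, 253 and 358 (1.25, SE 0.35, adjusted p = 0.0386). Its call held only without BODIPY-low replicate 3 when 1 library was left out (adjusted p up to 0.139 otherwise), and edgeR did not call it (0.0651). Ift57 was next, at 122, 104 and 168 against 264, 173 and 300.3 (0.89, SE 0.28, adjusted p = 0.0593), and DESeq2 called it (0.0284). Ift27, Ift46, Ift74 and Ift81 were not called, with log2 fold changes of 0.29 to 0.77.

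The 3 most abundant transport members per kilobase of exon were Ift52, Ift20 and Ift172, all of IFT-B, with means over the 6 libraries of 482, 267 and 178 normalised reads per kilobase. Ift52, a core subunit, had 1127, 1236 and 1278 in BODIPY-low and 1363, 1563 and 1528 in BODIPY-high (log2 fold change 0.29, SE 0.11, limma adjusted p = 0.118). Ift172 had 1087, 1086 and 1188 against 1278, 1204 and 1235 (0.15, SE 0.11, adjusted p = 0.430). In both the groups stood apart by small gaps. Ift20, the subunit that also resides at the Golgi, overlapped, at 440.2, 373 and 377 against 369, 449 and 439 (0.08, SE 0.16, adjusted p = 0.810). Ift88, whose loss is a standard way to ablate cilia in mice, had 88.0, 117 and 178 against 146, 101 and 89.0 (-0.16, SE 0.33, adjusted p = 0.800).

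None of the 6 BBSome genes was called by limma, although all 6 had positive fold changes (0.17 to 0.93). At an unadjusted p under 0.05 there were 2, Bbs1 and Bbs4. Bbs1 was nearest to the threshold, with 174, 197 and 149 in BODIPY-low and 469, 208 and 369 in BODIPY-high (log2 fold change 0.93, SE 0.29, limma adjusted p = 0.0534). BODIPY-high replicate 2 lay just above the BODIPY-low libraries. edgeR and DESeq2 called Bbs1 (adjusted p = 0.0390 and 0.00871). Bbs10 and Bbs12, which encode chaperonin-like proteins that help to assemble the BBSome, had negative fold changes, and their groups overlapped. Bbs10 had 143, 245 and 187 against 131, 105 and 160.5 (-0.52, SE 0.27, adjusted p = 0.257), and Bbs12 had 80.04, 146 and 169 against 60.3, 129 and 110.4 (-0.40, SE 0.37, adjusted p = 0.553).

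**Figure D3:**
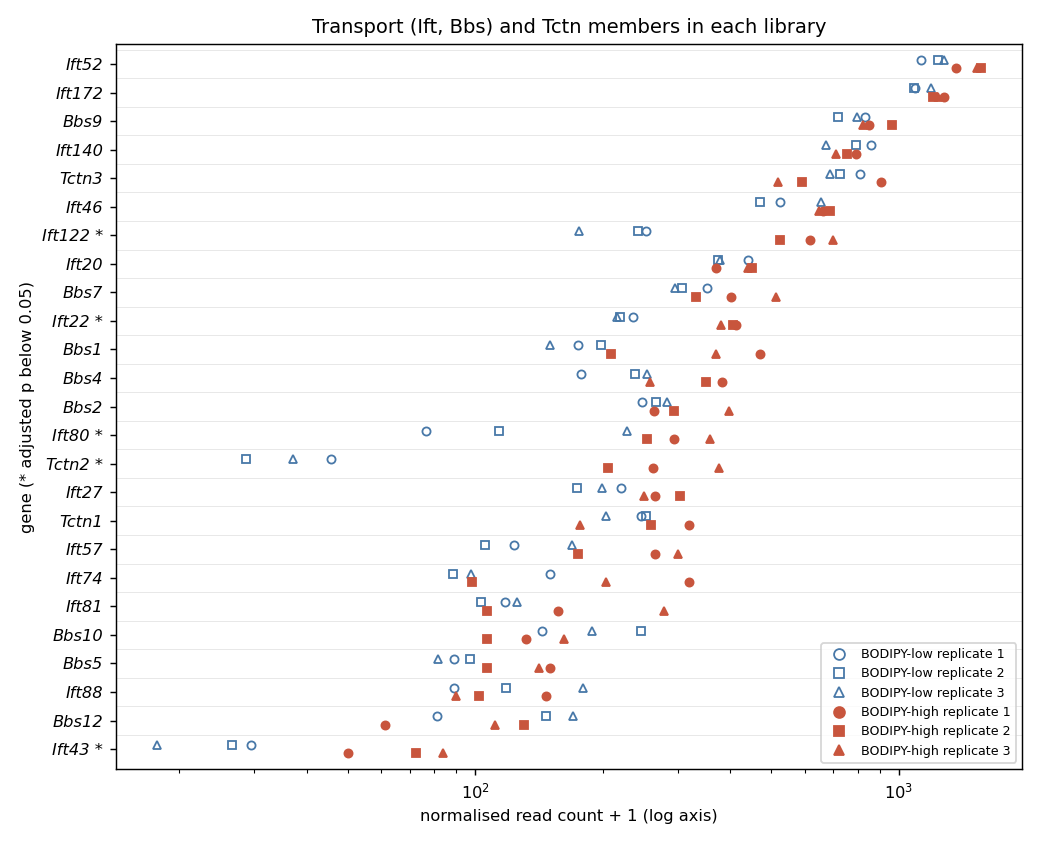
Normalised read count plus 1 (log axis) of the 22 transport members and the 3 tectonics in the 6 libraries, with symbols as for the motile class and an asterisk for a limma adjusted p below 0.05. Ift52 and Ift172 lie at the right with adjoining groups, and Tctn2, Ift122 and Ift22 show gaps between the sorts.

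The tectonics are part of the gate at the ciliary base. Tctn2 (chromosome 5, 124598749 to 124627738) had 44.6, 27.7 and 36.2 in BODIPY-low and 262, 205 and 374 in BODIPY-high (log2 fold change 2.90, SE 0.32, limma adjusted p = 2.37e-04). It was the 1 tectonic called, and its call was kept in every fit that left out a library. Tctn1 had 245, 251 and 202 against 318, 258 and 176 (0.07, SE 0.24, adjusted p = 0.892), and Tctn3 had 806, 727 and 686 against 904, 588 and 516 (-0.18, SE 0.20, adjusted p = 0.602). In both of these BODIPY-high replicate 1 was the highest library and replicate 3 the lowest. Exons of other genes, mainly Hvcn1 on the opposite strand, cover 25.5% of the exonic bases of Tctn1.

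Promoters of the members were searched for the X-box, the site bound by RFX factors, which control ciliary genes together with Foxj1. RefSeq promoters (GRCm38.p6, 250 bases before to 50 after the annotated start) were found for 59 of the 68 members. The X-box matched on either strand in 7 of these 59 genes (11.9%), against 0.796% of 27025 genes with a promoter of the same length. It was in 3 of 37 motile members, 2 of 19 transport members and 2 of 3 tectonics, and in 2 of 13 members that rose and 5 of 46 others. The letters GTTGCC, which can lie inside an X-box, were in 26 of 59 (44.1%), against 14.1% of all. They were in 4 of 13 members that rose (30.8%) and in 22 of 46 others (47.8%). Matches describe letters and not binding. The windows below, read in the direction of the gene with the X-box in capitals, show the matches of both genes that rose (Tctn2 and Cfap44) beside that of Dnaaf2, which was not called.
Tctn2, chr5:124598642-124598745 (plus strand): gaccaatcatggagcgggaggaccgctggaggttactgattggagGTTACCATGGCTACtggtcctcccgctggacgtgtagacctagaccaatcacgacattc
Cfap44, chr16:44394727-44394818 (plus strand): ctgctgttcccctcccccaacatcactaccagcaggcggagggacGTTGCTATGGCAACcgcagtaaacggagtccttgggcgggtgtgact
Dnaaf2, chr12:69198410-69198491 (minus strand): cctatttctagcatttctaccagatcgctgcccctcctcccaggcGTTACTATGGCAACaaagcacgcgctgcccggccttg
The first base of the match lies 62, 27 and 17 bases before the start in Tctn2, Cfap44 and Dnaaf2. Their log2 fold changes were 2.90, 5.38 and 0.12. Of the other 4 genes with an X-box, limma called none. DESeq2, by which 11.4% of all tested genes rose, called Cfap45 (2.25), Bbs1 (0.93) and Ift57 (0.89). Of these, edgeR called only Bbs1, and Tctn1 (0.07) was called by none of these tools.

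Cilia genes outside the symbol rule were read from 5 lists, whose counts stand beside the 9.79% of all tested genes that rose and the 3.52% that fell. Over the lists 40 of 120 tested genes rose. With the filter set on the BODIPY-low mean 20 rose, where 6.21% of all 12263 genes tested that way rose. That filter tests fewer genes, and the number of list genes that pass it is not given here. Of 49 tested genes of motile cilia with other names, 29 rose and 0 fell, with a median log2 fold change of 2.12, and Hydin, Pih1d3 and Sntn were not analysed here. Drc7, of the nexin-dynein regulatory complex, had 105, 44.8 and 54.7 in BODIPY-low and 1431, 871 and 1966 in BODIPY-high (log2 fold change 4.38, SE 0.35, limma adjusted p = 4.24e-05). Spag16, of the central pair, rose from 12.7 ± 19.7 to 220.4 ± 120.0 (SD, n = 3 each, adjusted p = 0.00690), and Iqub from 9.31 ± 13.8 to 197 ± 64.4 (adjusted p = 0.00388). Lrrc23, a radial spoke protein, had no read in BODIPY-low and 23.6, 21.5 and 18.3 in BODIPY-high, which over the pooled reads is at least 20.2-fold higher against a floor of 3 reads. Drc1 likewise had none and then 18.8, 7.93 and 43.7 (at least 24.7-fold higher).

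Of 15 tested regulators of multiciliation and related tubulin genes, 4 rose and 0 fell (median -0.02). Cdc20b, Deup1, Foxn4, Mcidas, Rfx4 and Ttll6 were not analysed here. Rfx2, an X-box binding factor, had 16.01, 0 and 1.86 in BODIPY-low and 105, 81.5 and 72.3 in BODIPY-high (log2 fold change 4.56, SE 0.90, limma adjusted p = 0.00716). Trp73, upstream of Foxj1 in multiciliated cells, rose from 6.14 ± 7.06 to 98.9 ± 67.3 (SD, n = 3 each, adjusted p = 0.0110). Gmnc had no read in BODIPY-low and 4.71, 20.4 and 35.8 in BODIPY-high (at least 20.5-fold higher over pooled reads), and Tubb4b, the main axonemal beta-tubulin, rose from 1717 ± 45.2 to 3330.4 ± 614 (adjusted p = 7.49e-04). Rfx3 was not called (249 ± 50.1 and 341 ± 87.2, adjusted p = 0.253). Ccno had 5.72, 0 and 19.5 in BODIPY-low and 0 reads in BODIPY-high.

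Of 25 tested motors, IFT subunits and BBSome partners with other names, 3 rose and 0 fell (median 0.25), a share near that of all tested genes. Besides Wdr35 these were Dync2li1, a light intermediate chain of dynein-2 (38.5 ± 3.63 to 133 ± 37.8, SD, n = 3 each, limma adjusted p = 0.00678), and Arl6, the GTPase that recruits the BBSome (127 ± 14.9 to 278 ± 46.1, adjusted p = 0.00789). Of 19 transition zone genes 3 rose and 0 fell (median 0.19). Among them were Tmem237 (411 ± 39.5 to 1082 ± 271, adjusted p = 6.35e-04) and Tmem107 (18.7 ± 8.89 to 87.1 ± 8.30, adjusted p = 0.00887). Of 12 tested genes of signalling in the primary cilium only Arl3, a GTPase that releases lipidated cargo, rose (141 ± 34.3 to 318 ± 60.9, adjusted p = 0.00877), again a share near that of all tested genes.

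Summed over members, the motile class made up 149, 150.1 and 164 RPM in BODIPY-low and 234, 194 and 247 in BODIPY-high. The transport class made up 259, 266 and 281 against 339, 324 and 359. Neither sum overlapped between the sorts, and BODIPY-high replicate 2 was the lowest of its group in both. Families differed in this sum. Cfap genes, the motile family with the largest sum, overlapped between the sorts, at 87.7 to 100.1 RPM in BODIPY-low and 96.5 to 127.6 in BODIPY-high. Radial spoke genes summed to 14.7 ± 0.714 and 38.5 ± 4.21 RPM (SD, n = 3 each) and tektins to 0.716 ± 0.261 and 8.92 ± 2.23. Bbs10 and Bbs12 together summed to 11.6 ± 3.36 and 8.25 ± 1.53. The tectonic sum overlapped, at 33.4 to 38.3 against 37.1 to 52.0.

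Choroid plexus markers and some ependyma markers rose in the same BODIPY-high libraries. All 18 choroid plexus markers rose, with a median log2 fold change of 4.53. BODIPY-high replicate 2 was the lowest of its group for all 18, for 9 of the 13 motile members that rose, for 2 of the 4 transport members that rose and for 2 of the 5 ependyma markers that rose. BODIPY-low replicate 1 was the highest of its group for 17 of the 18 choroid plexus markers and for 8 of the 13 motile members. It was also the highest for 3 of the 4 transport members and for all 5 ependyma markers that rose. The shares of all tested genes with these orders are not given here, so these counts are a description only. Whether the cilia genes follow any marker list across libraries was not tested. The neutrophil and monocyte sums were highest in that library as well (2792 and 452 RPM). Of the 14 ependyma markers 10 were read and 8 were tested, while Ccdc153, Fam183b, Fam216b and Tmem212 were not analysed here. Of the 8, 5 rose (Mia, 1110017D15Rik, Vtn, Mt3 and Pltp) and Cd24a fell. The ependyma list summed to 20.8 to 34.1 RPM in BODIPY-low and 66.6 to 101 in BODIPY-high, and its member Rarres2 was at 0 in every BODIPY-high library and Gm973 in every BODIPY-low library. Of the 8 leptomeningeal markers 6 were read and 3 were tested, and these 3 rose. The 6 summed to 0.964 to 3.20 RPM in BODIPY-low and 25.4 to 54.0 in BODIPY-high, and Col1a1 and Lum were not analysed here. Of the tested astrocyte markers 3 of 8 rose, of the tested border macrophage markers 1 of 7, of the tested neuron markers 1 of 4 and of the tested endothelial markers 1 of 8. For border macrophages and endothelium this is near the 9.79% of all tested genes. Besides neutrophil markers, 4 of 6 tested monocyte markers fell (all 8 listed summed to 7.85 to 22.9 RPM, against 222 to 452). Of 5 tested oligodendrocyte markers limma called 0. The part of any of these cell types in the rise of the cilia genes was not tested.

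**Figure D4:**
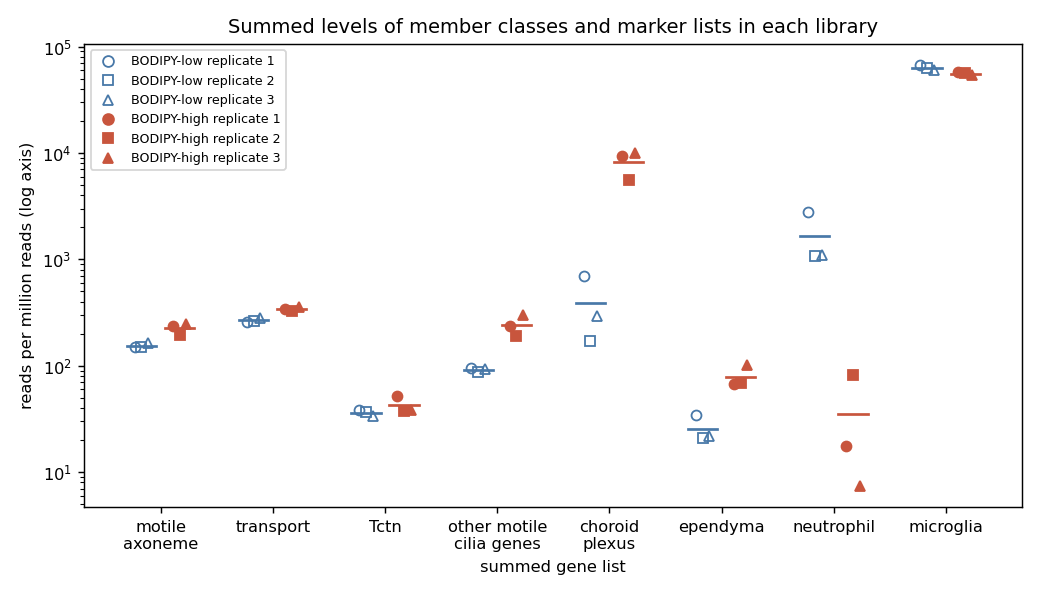
RPM (log axis) summed over each member class and over selected marker lists in the 6 libraries; points are libraries and bars are group means. Choroid plexus markers differ between the sorts by more than the cilia classes do, and neutrophil markers differ in the opposite direction.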

How the data were processed

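The deposited values are a signal: STAR gene counts that the authors scaled by library, as the values themselves show. Per the series' design text and the submitters' processing notes, FastQC 0.11.4, STAR 2.5.3a with its gene counting and DESeq2 were used on mouse mm10 (the notes also list mm9). The sources used here name neither annotation nor strand setting. Whole reads were recovered for 100% of values (tolerance 0.01 read).

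The 12821 genes averaging 10 or more (53 of them members) entered limma 3.58.1 under R 4.3.3, with a variance trend and no block, as a two-sided test on log2(value + 1), with Benjamini-Hochberg adjustment over all of them and calls below 0.05. The pseudocount shrinks the change of low genes. edgeR 4.0.16 and DESeq2 1.42.0 on recovered reads were alternatives, beside other pseudocounts, filters, TMM scaling, a replicate block and leaving out each library. Scripts were tested on simulated data. Coordinates and exon lengths are from GENCODE M21 (GRCm38), which matched all 68 members. Ratios of pooled reads carry exact 95% intervals from the binomial.

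The members and lists were chosen with earlier results of these data known, and lists rest on textbook knowledge. Genes with values in all libraries are Foxj1, up to 12 motile and 8 transport members with the largest called changes, the 3 most abundant per kilobase in each class, and the tectonics. From each other list, up to 5 called genes with the largest changes and 3 with the highest mean could be named. Further members and list genes named with values outside that rule were chosen after their values were seen.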

Additional observations from a re-analysis of the deposited data

How the results depend on the processing

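All 18 members called kept a positive fold change in each of the 265 fits under 15 other settings that tested them, and 12 kept their call in all of these. No called member had groups that overlapped, so leaving out a library or changing the pseudocount or filter could not turn the sign. With 1 library left out, the rises numbered 10 to 14 in the motile class, 2 to 5 in the transport class, 24 to 41 among the other cilia genes and 689 to 1295 over all genes. Falls numbered 0 to 1 in the motile class and 151 to 523 over all genes. The cause was not tested. With the filter on the BODIPY-low mean, which tests fewer genes, the rises were 8 in the motile class, 20 among the other cilia genes and 761 over all genes. Without Dnah7a, Dnah7b, Rsph3a and Rsph3b, close copies of one another, the motile class summed to 142 RPM in BODIPY-low, lower by construction. Fold changes near 0 changed sign when 1 library was left out, ranging from -0.255 to 0.0839 for Cfap97 (highest without BODIPY-high replicate 2), from -0.0317 to 0.154 for Cfap20 (lowest without BODIPY-low replicate 1) and from -0.121 to 0.304 for Tctn1 (-0.03 without BODIPY-low replicate 3). TMM scaling moved the median gene by -0.01. Same-numbered libraries had correlations of their deviations of 0.110, 0.144 and 0.0728, and differently numbered ones of -0.115 to 0.00158. Every library thus correlated best with its own number. It is not stated whether equal numbers mark the same animals, and these values cannot settle that. The main fit has no block. With the replicate number as a block the rises were 15, 6 and 1451 in the motile class, the transport class and over all genes, and the falls over all genes 760; Cfap36, Cfap45, Bbs1 and Ift57 were added. Whether depth limits the members averaging under 10 normalised reads was not tested.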
